A study of Mus musculus with 4 samples.

Results

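The 10 genes described here, which Wnt signaling switches on in many tissues, were examined for the histone mark H3K27me3 in mouse yolk sac erythro-myeloid progenitors (EMPs). They were the nuclear effectors Lef1, Tcf7 and Sp5 and the feedback or receptor genes Axin2, Nkd1, Nkd2, Notum, Znrf3, Rnf43 and Lgr5, thus 10 of 21938 protein-coding genes in the annotation. They were taken by name, and their peaks were those in the gene or within 10 kb of it, together with the annotated rows that named them. Of 10223 peaks called with 500 EMPs, 28 lay at these genes, and of 15282 peaks called with 15000 EMPs, 35 did. In the annotated lists, 26 of 10516 rows and 45 of 15810 rows named one of them.

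The study profiled H3K27me3 by CUT&RUN, in which a nuclease tethered to an antibody cuts out the DNA around the mark for sequencing. There were 4 libraries, namely H3K27me3 and a non-specific IgG control with 500 EMPs, and the same pair with 15000 EMPs. All came from C57BL/6 yolk sacs at E10.5, and all carried the genotype label Ezh2fl/fl with Tie2-Cre+/+ and the words wild type. They were treated as wild-type cells, following the study. There, Tie2-Cre acted from the endothelial stage onwards, and no library with deleted Ezh2 was analysed here. Whether embryos were pooled for a library is not given in the sources used here.

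Wnt ligands stabilise beta-catenin, which enters the nucleus and activates genes through the TCF/LEF factors, among which are Lef1 and Tcf7. Many of the genes switched on in this way restrain the pathway in turn, by degrading beta-catenin, inactivating the ligand or removing its receptors. H3K27me3 is placed by Ezh2, the catalytic subunit of Polycomb repressive complex 2, and it typically lies over repressed developmental genes with CpG-rich starts. EMPs arise from hemogenic endothelium of the yolk sac and give rise to the first definitive red and myeloid cells.

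Each H3K27me3 library gave 1 peak list, made against the IgG library of the same cell number per the methods. The lists held positions without score, p-value or read count, so a gene was marked or not, and the depth was unknown from the files. The reporting summary gives the 500-EMP libraries less depth and a lower alignment rate, for which no value here was corrected. The cell numbers also differed in read length, amplification, instrument and calling threshold, which cannot be told apart from cell number. With 1 library per cell number there was no replicate spread and no test, and every comparison below is between those 2 libraries. In a bulk library, the mark on a part of the cells and a weaker mark on all of them cannot be told apart.

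With 15000 EMPs, H3K27me3 peaks lay at 8 of the 10 genes, and Znrf3 and Rnf43 were the exceptions. With 500 EMPs, peaks lay at 6 of them, Lef1, Sp5, Notum, Lgr5, Nkd2 and Nkd1, of which Nkd1 had 1 peak far upstream. By the authors' distance of at most 3 kb, 5 of the 10 were marked with 500 EMPs, whereas 9.73% of all protein-coding genes were. With 15000 EMPs this was 8 of the 10, against 16.7% of all genes. The authors' distance runs to the nearer end of the gene, so peaks near its 3' end count as well. Measured to the gene start alone, the counts for the 10 genes were still 5 and 8. For peaks in the gene or within 10 kb, the shares of all protein-coding genes were 15.1% with 500 EMPs and 25.0% with 15000 EMPs. The 500-EMP count depended on narrow peaks at Nkd2 and Lgr5. When peaks had to be at least 500 bp wide it was 3 of 10, namely Lef1, Sp5 and Notum, and 8 of 10 were still marked with 15000 EMPs. The shares of all protein-coding genes under this width limit were not computed.

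A peak that crosses the annotated gene start was rarer. With 500 EMPs, Sp5 was the 1 gene of the 10 with such a peak, and 1.4% of all protein-coding genes had one. With 15000 EMPs, Sp5, Lef1, Notum, Lgr5 and Nkd2 had one, which made 5 of 10 against 8.63% of all genes. Among all genes with any peak bases within 3 kb of the start, the start itself was covered in 14.1% with 500 EMPs and in 50.8% with 15000 EMPs. The same ratio for the Wnt target genes was 1 of 5 and 5 of 8.

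**Figure D1:**
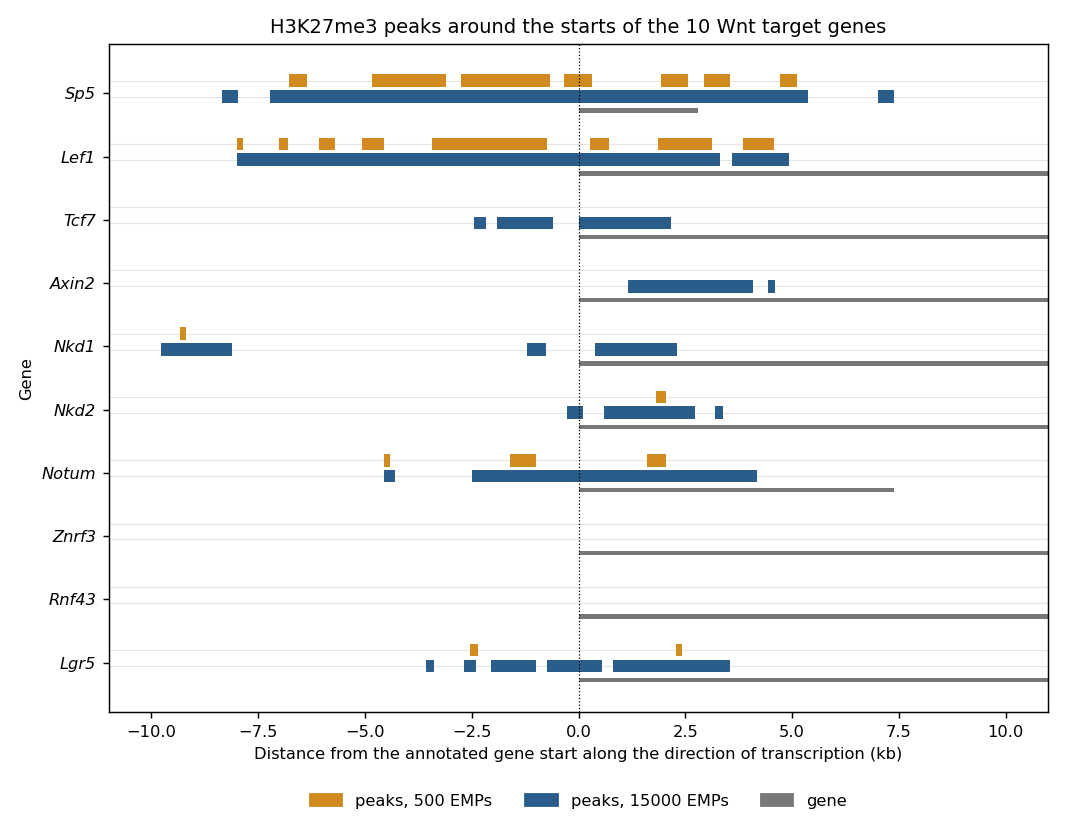
Called H3K27me3 peaks (upper bars 500 EMPs, lower bars 15000 EMPs) by distance from the annotated gene start in kb for the 10 Wnt target genes, with the gene body as a thin grey bar cut at the right edge. Sp5, Lef1 and Notum carry peaks of several kb over the start with 15000 EMPs that hold separate narrower peaks with 500 EMPs, and Znrf3 and Rnf43 carry none.

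Of the nuclear effectors, Sp5 and Lef1 held the widest peaks of the 10 genes in both libraries. Sp5 encodes a zinc-finger transcription factor that Wnt signaling induces and that acts on TCF/LEF target genes. The gene is short, 2807 bp on the forward strand of chromosome 2 (chr2:70474923-70477729). With 15000 EMPs a single peak of 12606 bp, chr2:70467692-70480297, covered it whole with both flanks, ranking 94th by width of 15282 peaks. With 500 EMPs the same stretch held 7 separate peaks of 414 to 2078 bp, which together covered 6567 bp or 52.1% of the wide peak. The widest of the 7, chr2:70472169-70474246, ended 677 bp before the start, and a 653-bp peak, chr2:70474574-70475226, crossed it. Sp5 was thus marked across its start in both libraries, the only gene of the 10 for which this held.

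The 250 bases before the Sp5 start are shown because they lay entirely within a peak in both libraries and because they hold 2 TCF/LEF words. The sequence is from RefSeq, build GRCm38.p6, chr2:70474673-70474922, forward strand, with capitals for the words.
Sp5 promoter: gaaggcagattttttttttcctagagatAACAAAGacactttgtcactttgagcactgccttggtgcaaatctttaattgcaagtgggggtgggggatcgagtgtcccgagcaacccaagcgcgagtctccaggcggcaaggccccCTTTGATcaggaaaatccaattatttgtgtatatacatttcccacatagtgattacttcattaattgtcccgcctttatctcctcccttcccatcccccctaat
The first word starts 222 bases before the start and reads as a TCF/LEF word on the opposite strand, and the second, CTTTGAT, starts 104 bases before it.

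Lef1 encodes one of the DNA-binding partners of beta-catenin and is itself a Wnt target. It spans 113886 bp of chromosome 3 (chr3:131110471-131224356, forward strand). With 15000 EMPs an 11305-bp peak, chr3:131102476-131113780, ran across its start and ranked 132nd by width. With 500 EMPs this stretch held 7 peaks that covered 5621 bp or 49.7% of it, and none of them lay on the gene start. The widest was 2682 bp, chr3:131107039-131109720, and ended 751 bp before the start, and the next peak of 439 bp began 272 bp after it. Lef1 therefore differed from Sp5 in the smaller library, where the peaks stopped short of the first start on both sides. A 1251-bp peak, chr3:131112338-131113588, covered internal transcript starts of Lef1 with 500 EMPs, at 2326 and 2335 bp after the gene start.

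Lef1 also carried a second group of peaks deep in the gene. With 500 EMPs, 6 peaks of 137 to 467 bp lay between 90739 and 110417 bp after the start. With 15000 EMPs, 7 peaks lay from 89366 bp onwards, of which the widest was 6574 bp, chr3:131199837-131206410, and held 3 of the 500-EMP peaks. Between the 2 groups, 15000 EMPs gave 5 further peaks of 208 to 1750 bp, whereas 500 EMPs gave 0. In all, each library had 14 peaks at Lef1, and they covered 3.6% of the gene with 500 EMPs and 17.6% with 15000 EMPs. For the 13 peaks of the deep group the nearest protein-coding start was that of the neighbour Hadh, at 50331 to 70558 bp, and the authors' tables list them under Hadh although they lie inside Lef1.

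Among the 4 Lef1 starts in the RefSeq promoter table, the windows of 2 are printed below. The first lay within a peak in both libraries. The second, at an internal start 45823 bp into the gene, holds a TCF/LEF word, given in capitals, and 110 of its 250 bases lay in a 15000-EMP peak and 0 in a 500-EMP peak. Both are the 250 bases before the start on the forward strand, GRCm38.p6, at chr3:131112541-131112790 and chr3:131156044-131156293.
Lef1 start 2320 bp into the gene: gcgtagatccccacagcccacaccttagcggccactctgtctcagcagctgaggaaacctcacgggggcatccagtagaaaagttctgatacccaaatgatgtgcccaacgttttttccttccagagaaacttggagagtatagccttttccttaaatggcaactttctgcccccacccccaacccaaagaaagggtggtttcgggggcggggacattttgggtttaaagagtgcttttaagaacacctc
Lef1 start 45823 bp into the gene: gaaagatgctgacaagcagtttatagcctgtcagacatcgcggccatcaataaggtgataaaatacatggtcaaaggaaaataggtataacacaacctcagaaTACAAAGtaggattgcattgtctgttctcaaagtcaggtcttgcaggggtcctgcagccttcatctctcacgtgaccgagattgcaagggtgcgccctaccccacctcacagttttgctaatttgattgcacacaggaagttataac
The word of the second window starts 147 bases before that start, and neither word of the Sp5 window recurs in the first.

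**Figure D2:**
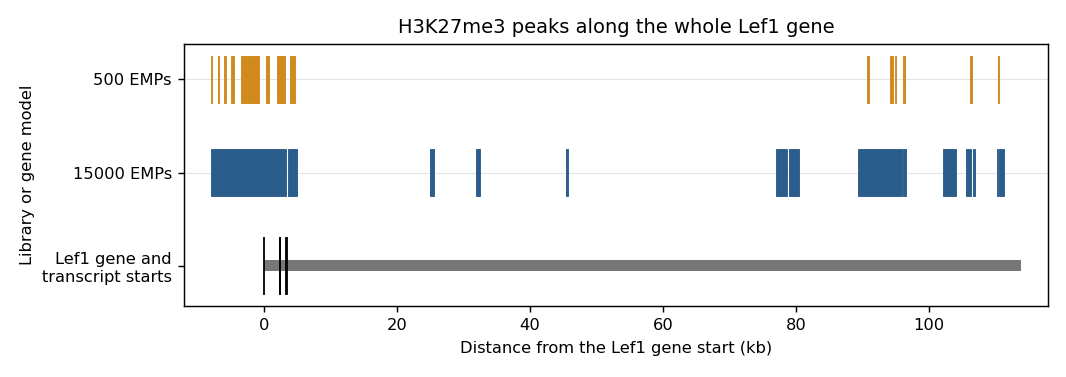
Called H3K27me3 peaks along Lef1 by distance from its gene start in kb, with 500 EMPs (top) and 15000 EMPs (middle), and the gene with its annotated transcript starts as black ticks (bottom). Both libraries show a block around the start and a second block 89366 bp and more after it, and the 5 peaks between them appear with 15000 EMPs alone.

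Tcf7, which encodes TCF1, another DNA-binding partner of beta-catenin, was marked with 15000 EMPs and had no peak with 500 EMPs. The gene lies on the reverse strand of chromosome 11 (chr11:52252371-52283014). Its widest 15000-EMP peak was 2159 bp, chr11:52280848-52283006. This peak began 8 bp inside the gene start and covered the second annotated transcript start, 443 bp into the gene. A 1311-bp and a 285-bp peak followed 607 and 2170 bp upstream, over the antisense gene A630014C17Rik, so that the mark flanked the gene start without a peak on it. In the smaller library the nearest peak to Tcf7 was 80.8 kb away.

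The cytoplasmic feedback genes are Axin2, Nkd1 and Nkd2. Axin2 encodes a scaffold of the complex that degrades beta-catenin and is widely used as a reporter of Wnt activity. It lies on chromosome 11 (chr11:108920349-108950783, forward strand), and with 500 EMPs its nearest peak was 1004.1 kb away. With 15000 EMPs a 2915-bp peak, chr11:108921512-108924426, began 1163 bp after the start, and a 171-bp peak lay 4434 bp after it. The peak left the gene start free and covered 2 of 7 annotated transcript starts, 1299 and 2832 bp into the gene.

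Nkd1 and Nkd2 encode the Naked proteins, which bind Dishevelled and dampen the signal. Nkd1 (chr8:88521354-88594884, forward strand) had 1 peak of 156 bp with 500 EMPs, chr8:88512017-88512172, 9182 bp upstream. With 15000 EMPs this place held a 1667-bp peak, and a 444-bp and a 1920-bp peak lay 768 bp before and 388 bp after the start. The widest, chr8:88521742-88523661, was within the gene, and none of the 3 annotated Nkd1 transcript starts was covered in either library. Nkd2 (chr13:73818534-73847631, reverse strand) had 1 peak of 215 bp with 500 EMPs, chr13:73845595-73845809, in an intron 1822 bp after the start. With 15000 EMPs a 2138-bp peak, chr13:73844905-73847042, took in that intronic site, and a separate 359-bp peak, chr13:73847535-73847893, crossed the start. Both paralogs thus had a peak within 10 kb in both libraries, at different distances from the start, and Nkd2 was the one with a peak on it.

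Notum encodes a secreted enzyme that removes the lipid from Wnt ligands and so inactivates them. The gene spans 7388 bp on the reverse strand of chromosome 11 (chr11:120653788-120661175). With 15000 EMPs a 6671-bp peak, chr11:120656997-120663667, crossed the start and covered all 4 annotated transcript starts, and 56.6% of the gene lay in it. With 500 EMPs there were 3 peaks. The widest, 611 bp at chr11:120662176-120662786, ended 1001 bp before the start, a 438-bp peak lay 1611 bp after it, and a 137-bp peak lay 4415 bp upstream. As at Lef1, the 500-EMP peaks lay on both sides of a start that the wide 15000-EMP peak covered. The wide peak also reached the antisense gene Myadml2os, and the assignment of the mark to 1 of the overlapping genes was not tested.

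At the receptor, Lgr5 was marked, and Znrf3 and Rnf43 were not. Lgr5 encodes a receptor for R-spondins, and Znrf3 and Rnf43 encode the membrane ubiquitin ligases that remove Frizzled receptors until R-spondin and an LGR receptor take them out of action. Lgr5 spans 137470 bp on the reverse strand of chromosome 10 (chr10:115450311-115587780). With 500 EMPs it had 2 narrow peaks, 179 bp at chr10:115590138-115590316, 2358 bp upstream, and 137 bp, 2290 bp into the gene. With 15000 EMPs it had 5 peaks within 4 kb of the start, the widest 2739 bp at chr10:115584229-115586967, and a 1288-bp peak, chr10:115587242-115588529, covered the start.

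Znrf3 (chr11:5276324-5444847, reverse strand, 168524 bp) and Rnf43 (chr11:87662722-87735539, forward strand, 72818 bp) had 0 peaks in the gene or within 10 kb in either library. The nearest peak to Znrf3 was 217.8 kb away with 500 EMPs and 214.2 kb away with 15000 EMPs. For Rnf43 these distances were 303.0 kb and 301.2 kb, and in both libraries that peak was near the start of Ppm1e. Neither gene was named in an annotated row. A peak that was not called does not show that the mark was absent.

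The order of the genes by peak bases within 3 kb of the gene start, a window of 6001 bp, was led by the same 3 genes in both libraries. With 15000 EMPs the whole window of Sp5 and of Lef1 lay in peaks, followed by 5493 bp at Notum, 4803 bp at Lgr5 and 3755 bp at Tcf7. Nkd2 with 2497 bp, Nkd1 with 2364 bp and Axin2 with 1838 bp came next, and Znrf3 and Rnf43 had 0 bp. With 500 EMPs the covered lengths were 3823 bp at Lef1, 3428 bp at Sp5, 1049 bp at Notum, 316 bp at Lgr5 and 215 bp at Nkd2, and the other 5 genes had 0 bp. Sp5 and Lef1 were tied with 15000 EMPs, and without replicates no pair of neighbours in these orders can be said to differ.

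Over the 10 genes the median was 107.5 bp with 500 EMPs and 3126 bp with 15000 EMPs, where the median over all protein-coding genes was 0 bp in both. Among the 2177 and 3728 protein-coding genes with any coverage the medians were 789 bp and 2743 bp. Lef1, Sp5 and Notum lay above that median in both libraries, and Lgr5 and Tcf7 with 15000 EMPs. Of all protein-coding genes, 0.634% were covered over the whole window as Sp5 and Lef1 were with 15000 EMPs, and with 500 EMPs 0.579% were covered at least as much as Sp5 and 0.428% as Lef1. For Axin2 this was 11.3% with 15000 EMPs. It was the least covered of the 8 marked genes in this window, but with 3086 bp around the best covered of its transcript starts it stood above Nkd1 with 2364 bp and Nkd2 with 2497 bp.

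**Figure D3:**
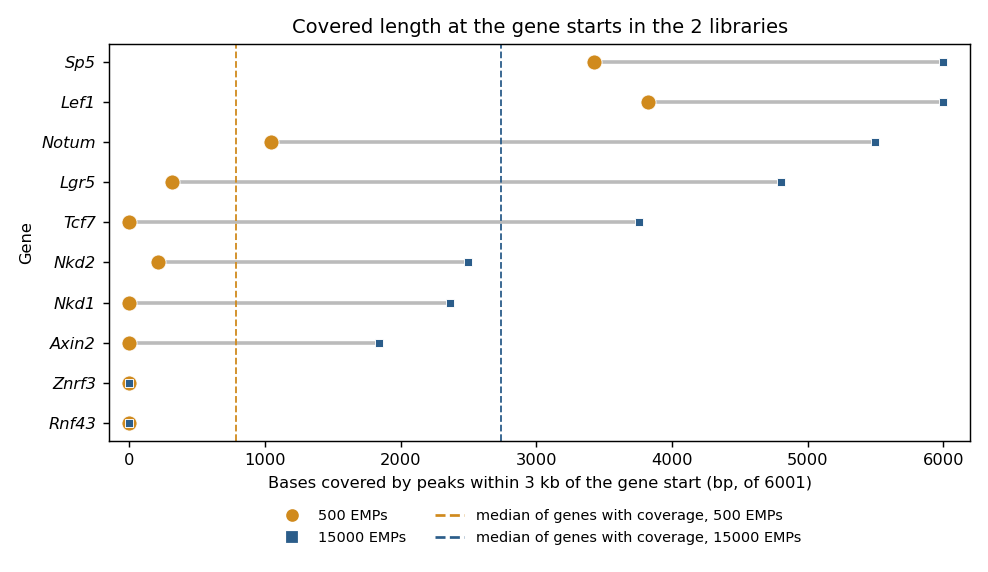
Bases covered by H3K27me3 peaks within 3 kb of the gene start (horizontal axis, bp of 6001) for each of the 10 genes with 500 EMPs (circles) and 15000 EMPs (squares), with dashed lines at the medians of the protein-coding genes with any coverage, 789 and 2743 bp. The 8 marked genes lie between 1838 and 6001 bp with 15000 EMPs, each above its 500-EMP value, and at Znrf3 and Rnf43 both symbols lie at 0.

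The 500-EMP peaks were largely a part of the 15000-EMP peaks. Of the 28 peaks at these genes with 500 EMPs, 27 shared 1 bp or more with a 15000-EMP peak (96.4%), and the exception was a 137-bp peak in an intron of Lef1. Over all 500-EMP peaks the share was 91.2%. In the other direction, 12 of 35 peaks at these genes overlapped a 500-EMP peak (34.3%), and 32.2% of all 15000-EMP peaks did. Of the 8 peaks of at least 2 kb at these genes, 6 held at least 1 of 21 pieces from the smaller library, and the 2 without were those of Tcf7 and Axin2. Of the 27 narrower peaks, 6 were overlapped. These shares, 75.0% and 22.2%, were near those over all 15000-EMP peaks, 81.7% at 2 kb and more and 15.9% below. The bases shared by both libraries made up 97.8% of the 16472 bp called with 500 EMPs and 23.9% of the 67433 bp called with 15000 EMPs.

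The number of peaks at these genes was similar in both libraries, while their summed width differed 4.09-fold. The median width at these genes was 425.5 bp with 500 EMPs and 736 bp with 15000 EMPs, near the medians over all peaks of 363 and 770 bp. The 4 peaks of over 5 kb at Sp5, Lef1 and Notum made up most of the 15000-EMP sum, and 875 of all 15000-EMP peaks were as wide. With 500 EMPs, 4 of the 28 peaks were 137 bp wide, the narrowest that list holds.

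Rows of the annotated tables also tied peaks beyond 10 kb to these genes, 4 with 500 EMPs and 17 with 15000 EMPs. Far upstream of Nkd1 a 4877-bp peak, chr8:88451104-88455980, ended 65374 bp before the start and held 2 peaks of the smaller library, of 589 and 316 bp. Upstream of Lef1 a 1531-bp peak, chr3:131084207-131085737, ended 24734 bp before the start and overlapped a 411-bp peak of the smaller library. Upstream of Axin2 a 2363-bp peak, chr11:108891212-108893574, ended 26775 bp before the start and was called with 15000 EMPs alone. Of the 17 rows with 15000 EMPs, 2 overlapped a 500-EMP peak, 1 of 8 at Lef1, 1 of 2 at Nkd1 and 0 of 4 at Sp5. Over all 15000-EMP peaks 32.2% did, and 15.9% of those under 2 kb, as most of the 17 were. Of the 4 rows with 500 EMPs, 3 overlapped a 15000-EMP peak and the row of Sp5 did not. Of all 500-EMP peaks, 91.2% overlapped one. The assignment of these distal rows to a gene is the authors', and no contact with the gene was measured. The 500-EMP row of Sp5, 91575 bp before the start, lay inside Myo3b, as did a 15000-EMP row 94456 bp before it. A 15000-EMP row of Lef1, 186312 bp before the start, lay inside the lincRNA gene 2010110G14Rik.

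The other genes of the pathway were counted in lists by role. Some genes stand in 2 lists. Of 12 genes of the beta-catenin destruction complex, 0 with 500 EMPs and 1 with 15000 EMPs had a peak within 3 kb by the authors' distance. The 1 gene was Apc2, a homolog of the scaffold gene Apc. Among 9 receptor-level genes, Lgr6 and Kremen2 were marked in both libraries, where Kremen2 encodes a receptor for Dkk proteins, and the Lrp, Dishevelled, Kremen1 and Lgr4 genes were not. The share of all protein-coding genes given above, 9.73% and 16.7%, stands beside these counts, and with lists of this size nothing particular is read from them.

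The R-spondin genes, whose products are the ligands of Lgr5, were marked within 3 kb in 3 of 4 cases with 500 EMPs and in 4 of 4 with 15000 EMPs. Of all protein-coding genes 9.73% and 16.7% were, which also stands beside the counts of the lists that follow. Covered length within 3 kb of the start was 1186 and 4625 bp at Rspo1, 331 and 4376 bp at Rspo2, 406 and 2907 bp at Rspo4, and 0 and 2852 bp at Rspo3. With 15000 EMPs the 4 ligand genes, Lgr5 and its paralog Lgr6 thus carried peaks, whereas the paralog Lgr4 and both ligase genes had none. Of 14 other Wnt-responsive genes, 8 with 500 EMPs and 10 with 15000 EMPs had a peak within 3 kb. They were Ccnd1 (cyclin D1), Tnfrsf19, Ascl2, T (Brachyury), the caudal genes Cdx1, Cdx2 and Cdx4, and the secreted antagonist gene Dkk1 in both libraries, joined by the Wnt inhibitor genes Apcdd1 and Wif1 with 15000 EMPs. Myc, Mycn, Cd44 and Bambi had none. Cdx2 was covered over 4131 and 6001 bp, as much as Sp5 and Lef1 with 15000 EMPs. Among 12 nuclear cofactors, Pygo1 was marked in both libraries and Tcf7l1, Tcf7l2 and the corepressor genes Tle1 and Tle2 with 15000 EMPs, which made 1 and 5.

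Paralogs of the 10 genes did not share 1 state. Counting peaks in the gene or up to 10 kb away, 8 of 13 paralogs were marked with 500 EMPs and 9 with 15000 EMPs, and within 3 kb 4 and 7 were. The shares of all protein-coding genes were 15.1% and 25.0%, and within 3 kb 9.73% and 16.7%. Axin1, which encodes the constitutive counterpart of Axin2 in the degradation complex, had 0 covered bases within 3 kb of its start in both libraries, but a peak in the gene or within 10 kb in both. Of the other TCF/LEF genes, Tcf7l1 was covered over 0 bp with 500 EMPs and 2566 bp with 15000 EMPs, and Tcf7l2 over 0 and 44 bp. All 4 TCF/LEF genes thus had a peak by the 3 kb rule with 15000 EMPs, and Lef1 alone with 500 EMPs. Of the Lgr genes, Lgr6 was covered over 274 and 3153 bp and Lgr4 over 0 bp in both. Of the Sp genes, Sp8 (2908 and 6001 bp), Sp9 (1450 and 5734 bp) and Sp6 (476 and 3163 bp) were covered in both libraries, Sp2 over 467 bp with 15000 EMPs alone, and Sp1, Sp3, Sp4 and Sp7 over 0 bp in both, although Sp7 had a peak in the gene or within 10 kb in both and Sp3 with 500 EMPs.

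**Figure D4:**
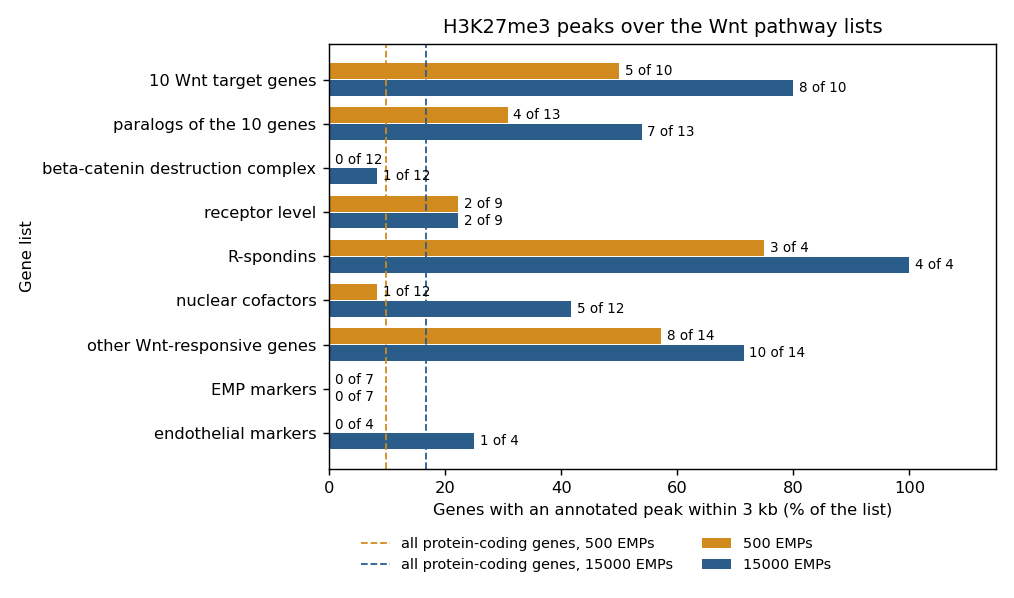
Share of genes with an annotated H3K27me3 peak within 3 kb (% of each list) with 500 EMPs (upper bars) and 15000 EMPs (lower bars), the counts written beside the bars and dashed lines at the shares of all protein-coding genes, 9.73% and 16.7%. The 10 Wnt target genes stand at 5 and 8 of 10, and the destruction complex at 0 and 1 of 12.

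Of the 7 marker genes of EMPs (Kit, Itga2b, Fcgr3, Fcgr2b, Runx1, Gfi1b and Ptprc), 0 had a peak within 3 kb in either library, and 1, Fcgr3, had a peak in the gene or within 10 kb in both. Of the 4 endothelial markers (Cdh5, Pecam1, Tek and Kdr), 0 with 500 EMPs and 1 with 15000 EMPs had a peak within 3 kb, namely Kdr with 274 bp. In the gene or up to 10 kb away, Pecam1 had one with 500 EMPs and Kdr with 15000 EMPs. Of all protein-coding genes, 9.73% and 16.7% had a peak within 3 kb, and 15.1% and 25.0% in the gene or within 10 kb. With 7 and 4 genes, nothing particular is read from the marker counts. These lists describe the mark and not expression, so they do not measure the makeup of the sorted cells.

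The median CpG content at the starts, measured within 500 bp on either side, was higher over these genes than over all protein-coding genes. Rnf43, with a ratio of 0.51 and a GC content of 47.0%, lay below both medians of all genes. The observed over expected CpG ratio compares the CpG count with the count that the C and G content alone would give. Its median was 0.76 over the 10 genes, with a GC content of 63.9%, against 0.55 and 54.7% over all protein-coding genes. Genes with coverage within 3 kb had median ratios of 0.66 with 500 EMPs and 0.64 with 15000 EMPs, and genes without it 0.52 and 0.49. The upper quartiles were close, at 0.78 and 0.77 with coverage and 0.76 and 0.77 without it. The lower quartiles were 0.51 and 0.48 with coverage and 0.2 and 0.19 without it. The 2 unmarked genes stood at the ends of the range, Znrf3 highest with 0.99 and Rnf43 lowest with 0.51. The 8 marked genes lay between, from 0.57 at Lgr5 to 0.86 at Tcf7, and the 3 with the most covered bases with 15000 EMPs had ratios of 0.72 at Sp5, 0.66 at Lef1 and 0.78 at Notum.

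**Figure D5:**
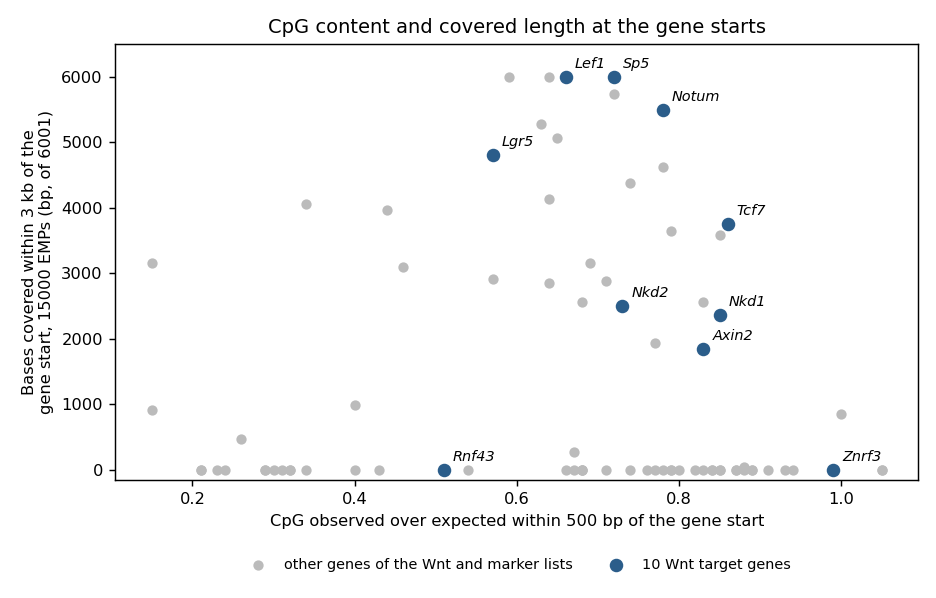
Covered bases within 3 kb of the gene start with 15000 EMPs (vertical axis, bp of 6001) against the observed over expected CpG ratio within 500 bp of the start (horizontal axis) for the 10 Wnt target genes (named) and the other genes of the pathway and marker lists (grey). Znrf3 with a ratio of 0.99 and Rnf43 with 0.51 lie at 0 bp, and the 8 marked genes lie between them on the horizontal axis.

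Letters of the TCF/LEF core were then searched in the promoters. The words were CTTTGAA together with CTTTGAT, which differ in the last letter, the related CTTTGTA as a further form and CTTTGTT as the last. Both strands were read, and no word contains another. RefSeq promoter windows, from 250 bases before to 50 after a start, were at hand for 12 starts of 7 of the genes (Sp5, Lef1, Nkd1, Tcf7, Rnf43, Axin2 and Nkd2). A word occurred in 2 of the 12 windows, the printed windows of Sp5 and of the Lef1 start 45823 bp into the gene. This was 16.7% of the windows, and 16.9% of all 32851 promoter windows held a word. CTTTGAT alone occurred in 1 of the 12, that of Sp5, and in 3.73% of all. Within 1 kb on either side of the gene start all 10 genes had a word, as did 74.8% of protein-coding genes, with 6 words at Sp5, 4 at Axin2 and 3 at Rnf43. Marked and unmarked genes of the 10 thus both held the word, and a match of letters is not a binding site.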

How the data were processed

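Per the labels and the study's methods, the authors aligned reads to mm10 with Bowtie2 2.2.1, called broad peaks with MACS2 2.1.2 against IgG (p-value threshold 0.01 with 500 EMPs and 0.05 with 15000 EMPs) and annotated them with ChIPpeakAnno 3.20.1. In their command listing the 2 cell numbers are exchanged relative to these thresholds, and the labels of the deposited lists were kept. Labels give 17 PCR cycles and 76 bp reads with 500 EMPs, and 16 cycles and 59 bp with 15000 EMPs. The deposited files hold peak positions, gene names, location categories and distances in bp.

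Here peaks were compared with GENCODE vM21 genes and RefSeq GRCm38.p6 sequence using Python 3.11.15, pandas 2.3.3 and pysam 0.24.0. Overlap of at least 1 bp was required. No test was possible with 1 library per cell number, and other limits, widths, joins and overlaps were tried. The scripts were tested on simulated peaks. Named were all 10 genes with their widest peaks and those across a start, paralogs, and listed genes with a peak within 3 kb. Genes and lists were chosen with earlier results of these data known. IgG libraries had no peak list used here.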

Additional observations from a re-analysis of the deposited data

How the results depend on the processing

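A count was taken as kept when it stayed within 1.5 times its value. Over the 13 counts and lengths and 80 alternatives, 60 did, as did 98 of 120 alternatives for the covered length of single genes. Axin2 with 15000 EMPs went from 1838 bp to 0 bp in a 1 kb window and to 3086 bp in a 5 kb window or at any transcript start. With 500 EMPs, the 5 genes marked within 3 kb became 3 at a limit of 1 kb and 3 with peaks of at least 500 bp, and the 6 genes with a peak in the gene or within 10 kb became 3 with such peaks. The 28 peaks with 500 EMPs became 14 in gene bodies alone, 10 with peaks of at least 500 bp and 11 when peaks within 3 kb were joined. The 35 peaks with 15000 EMPs became 21 with peaks of at least 500 bp, 20 when joined within 1 kb and 16 when joined within 3 kb. The summed covered length of 8831 bp with 500 EMPs was 1666 bp in a 1 kb window and 13264 bp in a 5 kb window, and the 32752 bp with 15000 EMPs were 10491 bp in a 1 kb window, since the window itself changed. Counting any transcript start, 2 genes had a covered start with 500 EMPs in place of 1. The 27 overlapping 500-EMP peaks became 3 when 50% of both peaks had to overlap, 11 of 11 when joined within 3 kb and 13 of 14 in gene bodies. The 12 overlapping 15000-EMP peaks became 4 when 50% of the peak and 3 when 50% of both had to overlap. Of the 7 genes with a promoter window, 2 held a TCF/LEF word, and 1 did when CTTTGAT alone was counted. Within 1 kb of the gene start, where all 10 genes could be read, 10 of 10 held a word. With 15000 EMPs, the 8 genes with a peak in the gene or within 10 kb stayed 8 under every alternative run, and the 8 within 3 kb were 7 at a limit of 1 kb. The files give no depth per peak, and a peak missing with 500 EMPs does not show that the mark was absent. No paired analysis was possible because each group had 1 library.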

Other observations

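Among the genes of the pathway and marker lists, 2 had a peak in the gene or within 10 kb with 500 EMPs and none with 15000 EMPs, namely Sp3, which encodes a ubiquitous zinc-finger factor, and Pecam1, an endothelial adhesion gene. Over all protein-coding genes 100 had this order, against 2279 with the opposite one and 3203 marked in both. None of the 10 Wnt target genes was in the first class, 2 (Tcf7 and Axin2) were in the second, 6 in the third, and 2 (Znrf3 and Rnf43) were without a peak in either library.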
